A study of Mus musculus with 10 samples.

Results

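Poly(ADP-ribose) polymerase (PARP) family enzymes transfer ADP-ribose from NAD onto proteins and nucleic acids. Some of them, such as Parp1, act at DNA breaks, whereas a group of mono-ADP-ribosyltransferases, among them Parp9, Parp10, Parp11, Parp12 and Parp14, is known to be induced by interferons and to take part in antiviral defence. Dtx3l, a deltex-type ubiquitin ligase, is the binding partner of Parp9. The expression of 8 genes, Parp1, Parp3, Parp9, Parp10, Parp11, Parp12, Parp14 and Dtx3l, was examined in intestinal epithelial cells (IECs). The members were the rows of the expression table with these gene names, 8 of 55487 genes, and each passed the filter for low expression that left 12870 genes.

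The IECs were released from mouse colon with EDTA, and no cell sort followed. RNA of 5 WT and 5 RhoB-/- libraries was sequenced. All mice were on the C57BL/6J background, and the age given for mice in general is 6 to 8 weeks. The RhoB-/- mice lack Rhob in the whole body, so their IECs, immune cells and stroma carry the same genotype. According to the methods, WT male mice were purchased and the knockout was made at another centre, and neither the sex of the sequenced mice nor whether the WT mice were littermates is stated. If they were not, genotype cannot be told apart from origin. No treatment is given for these mice. Expression is given as TPM, a transcript level scaled for gene length within each library, which can be compared between genes. TPM keeps no read depth, so the counting error of a value is unknown and errors are the SD between libraries.

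Rhob had 170.52 to 388.71 TPM in WT libraries. It had 0.09 to 0.57 TPM in RhoB-/- replicates 1 to 4, and 110.87 TPM in the library labelled RhoB-/- replicate 5. That library was kept in its labelled group, and results without it are given beside the results. The epithelial markers Epcam and Krt8 were abundant in every library (968.75 to 1639 and 3938 to 6128 TPM). For the marker counts that follow, 5.58% of all tested genes were called higher, at an adjusted p below 0.05 and a fold change above 1.5. Of the 7 epithelial markers 2 were higher in RhoB-/- mice, Krt20 and Vil1, and only Krt20 without the library labelled RhoB-/- replicate 5. The sums were 6741 to 7860 TPM in WT and 7319 to 11833 TPM in RhoB-/- libraries. The 4 general leukocyte markers were all higher in RhoB-/- mice, with a summed level of 6.09 to 13.32 TPM in WT and 17.64 to 36.20 TPM in RhoB-/- libraries. Of the 8 T and NK cell markers 7 passed the filter and 5 of these were higher, with sums of 7.93 to 18.04 and 35.25 to 39.54 TPM. Of the 7 myeloid markers 2 passed the filter and 1 of these was higher, with sums of 1.93 to 3.32 TPM in WT and 4.26 to 16.39 TPM in RhoB-/- libraries. These 2, Lyz2 and Cd68, averaged 0.868 and 0.988 TPM in WT and passed the filter only through their RhoB-/- level. The filter thus fixed their direction, and likewise that of Cd8a (0.832 TPM in WT) among the T and NK cell markers. Of the 8 stromal and endothelial markers 2 passed and 1 was higher, with sums of 4.10 to 5.05 and 6.24 to 36.44 TPM. The 5 B and plasma cell markers were below the filter, with sums of at most 0.89 TPM in WT and 11.42 TPM in RhoB-/- libraries. Ncr1, Mzb1 and S100a8 were listed at 0 in every WT library. The markers of cells other than the epithelium were low but moved with genotype. The part of any of these cell types in the results on the PARP genes was not tested. In bulk RNA, a change in the number of cells of a type and a change in RNA per cell cannot be told apart.

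The 5 members for which a promoter was found in the RefSeq table (GRCm38.p6) were Parp1, Parp3, Parp11, Parp12 and Dtx3l. No promoter sequence of Parp9, Parp10 and Parp14 is shown. The windows run from 250 bases before to 50 bases after the annotated start and are shown for the gene that fell (Parp1) and for 3 genes that rose, because the latter shared a direction of change. They were searched on both strands for GAAANNGAAA, the core of the interferon-stimulated response element (ISRE), and for TTCNNNGAA, the palindromic STAT site called GAS. Capitals mark matches to either motif.
Parp11 (chr6:127446590-127446889, plus strand): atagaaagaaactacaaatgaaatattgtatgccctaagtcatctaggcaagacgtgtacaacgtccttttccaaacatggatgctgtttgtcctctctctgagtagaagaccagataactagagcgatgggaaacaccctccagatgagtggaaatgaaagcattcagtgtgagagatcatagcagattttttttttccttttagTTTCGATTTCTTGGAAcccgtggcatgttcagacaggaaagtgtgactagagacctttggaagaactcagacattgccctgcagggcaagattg
Dtx3l (chr16:35938978-35939277, minus strand): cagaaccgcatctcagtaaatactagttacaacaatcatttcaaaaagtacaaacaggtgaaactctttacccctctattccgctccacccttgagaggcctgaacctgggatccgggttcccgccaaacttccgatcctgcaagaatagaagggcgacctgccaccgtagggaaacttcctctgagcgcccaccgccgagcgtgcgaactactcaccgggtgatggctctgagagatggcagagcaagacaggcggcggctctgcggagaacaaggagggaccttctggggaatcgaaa
Parp12 (chr6:39118300-39118599, minus strand): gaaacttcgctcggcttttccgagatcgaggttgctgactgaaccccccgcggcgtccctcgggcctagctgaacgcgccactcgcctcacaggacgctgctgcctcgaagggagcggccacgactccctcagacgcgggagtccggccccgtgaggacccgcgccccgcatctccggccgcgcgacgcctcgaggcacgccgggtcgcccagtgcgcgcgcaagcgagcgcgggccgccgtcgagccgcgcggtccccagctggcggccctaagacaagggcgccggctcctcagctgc
Parp1 (chr1:180568641-180568940, plus strand): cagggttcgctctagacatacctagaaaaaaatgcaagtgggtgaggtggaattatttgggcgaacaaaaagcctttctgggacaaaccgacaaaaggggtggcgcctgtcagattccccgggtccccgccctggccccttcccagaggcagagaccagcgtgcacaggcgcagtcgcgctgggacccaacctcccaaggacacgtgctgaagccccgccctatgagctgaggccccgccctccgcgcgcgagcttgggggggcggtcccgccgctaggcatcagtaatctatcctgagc

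Among the 6 windows of these 5 members, matches occurred in 1, the upstream window of Parp11. There the ISRE core, on the minus strand, lay at -44 to -35 and the GAS at -37 to -29 relative to the start, so that the matches overlap by their shared bases. The letters of the ISRE core occurred in 3.44% of all 32851 promoter windows, those of the GAS in 8.30%, and both in 0.454%. The other windows of the members hold neither set of letters, which says nothing about sites outside them. The windows also differed in base composition. The Parp12 window had 73.7% G and C and 46 CpG dinucleotides, against 42.0% and 5 in the matching Parp11 window and medians of 52.7% and 7 over all windows.

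Of the 8 genes, 6 were higher and 1 was lower in RhoB-/- than in WT mice, at an adjusted p below 0.05 and a fold change above 1.5. Over all tested genes, 5.58% were called higher and 7.13% lower (718 and 918 genes, or 950 and 539 with each library centred on its median). The genes called higher were Parp9, Parp10, Parp11, Parp12, Parp14 and Dtx3l, the gene called lower was Parp1, and Parp3 was not called. The groups did not overlap for 6 members that were higher and 1 that was lower, against 5.97% and 8.55% of the tested genes. The log2 fold change, here the difference of mean log2(TPM + 1), had a median of 1.37 over the 8 members and of -0.13 over the tested genes. Without the library labelled RhoB-/- replicate 5, the counts were 6 higher and 1 lower as well, and the log2 fold changes of Parp14, Parp9, Dtx3l and Parp12 were 2.45, 2.0, 2.0 and 1.80. Parp1 and Parp3 are known mainly for roles in DNA repair, and of these Parp1 fell and Parp3 was not called, so the members did not move as 1 group.

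**Figure D1:**
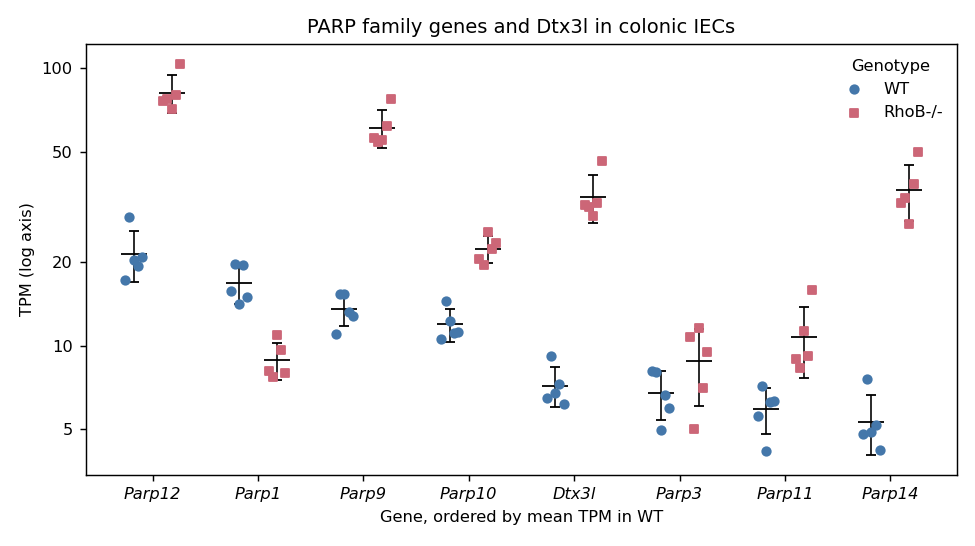
TPM of the 8 genes (log axis) in each of 5 WT libraries (circles) and 5 RhoB-/- libraries (squares), with the mean and SD as black bars. The RhoB-/- values of Parp12, Parp9, Parp10, Dtx3l, Parp11 and Parp14 lie above the WT values, those of Parp1 lie below, and those of Parp3 overlap with WT.

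Parp14, a macrodomain-containing mono-ADP-ribosyltransferase, showed the largest change of the 8 genes. Its TPM was 4.82, 7.56, 4.89, 5.17 and 4.19 in WT replicates 1 to 5 and 32.74, 34.18, 27.45, 38.41 and 49.85 in RhoB-/- replicates 1 to 5. The lowest RhoB-/- library was thus well above the highest WT library, and WT replicate 2 and RhoB-/- replicate 5 were the highest of their groups. Mean TPM was 5.33 ± 1.30 in WT and 36.5 ± 8.42 in RhoB-/- mice (SD, n = 5 each), a ratio of 6.86. The log2 fold change was 2.56 (standard error 0.17, adjusted p = 1.19e-06, limma), a change that 0.513% of the tested genes exceeded.

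Parp9, a macrodomain protein with little transferase activity of its own, had 11.05, 15.30, 15.34, 13.21 and 12.83 TPM in WT replicates 1 to 5 and 56.23, 54.42, 55.25, 62.03 and 77.43 TPM in RhoB-/- replicates 1 to 5. The groups were separated by more than the spread within either of them. The log2 fold change was 2.09 (standard error 0.13, adjusted p = 6.04e-07, limma), and the mean TPM was 4.51 times as high in RhoB-/- mice. Dtx3l, its partner, had 6.49, 9.18, 6.76, 7.28 and 6.18 TPM in WT and 32.11, 31.49, 29.35, 32.76 and 46.26 TPM in RhoB-/- replicates 1 to 5. Its RhoB-/- libraries were close together except for replicate 5. The log2 fold change of Dtx3l was 2.11 (standard error 0.14, adjusted p = 1.19e-06, limma), with a ratio of mean TPM of 4.79.

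Parp12, a zinc finger mono-ADP-ribosyltransferase with antiviral activity, was the most abundant of the 8 genes in both genotypes. It had 17.30, 29.07, 20.33, 19.43 and 20.82 TPM in WT and 75.95, 77.40, 71.46, 79.77 and 103.98 TPM in RhoB-/- replicates 1 to 5. The lowest RhoB-/- library had more than the highest WT library, and WT replicate 2 and RhoB-/- replicate 5 were again the highest of their groups. The log2 fold change was 1.89 (standard error 0.14, adjusted p = 3.99e-06, limma).

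Parp10 and Parp11, both mono-ADP-ribosyltransferases, rose by less. Parp10 had 10.55, 14.53, 12.26, 11.07 and 11.23 TPM in WT and 20.48, 19.59, 25.71, 22.34 and 23.49 TPM in RhoB-/- replicates 1 to 5. Its log2 fold change was 0.85 (standard error 0.11, adjusted p = 3.70e-04, limma), a ratio of mean TPM of 1.87. Unlike the genes above, its highest RhoB-/- library was replicate 3. Parp11 had 5.56, 7.18, 4.18, 6.27 and 6.33 TPM in WT and 8.98, 8.33, 11.31, 9.14 and 15.87 TPM in RhoB-/- replicates 1 to 5. The gap between its groups was narrow, from 7.18 to 8.33 TPM, and its log2 fold change was 0.75 (standard error 0.17, adjusted p = 0.0123, limma). Without the library labelled RhoB-/- replicate 5 it was 0.61 (adjusted p = 0.0237, limma), close to the fold change threshold.

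Parp1, the main poly(ADP-ribosyl)ating enzyme at DNA breaks, was lower in RhoB-/- mice. It had 15.72, 19.68, 14.10, 19.51 and 14.95 TPM in WT and 8.10, 7.72, 10.89, 9.68 and 7.94 TPM in RhoB-/- replicates 1 to 5. Every RhoB-/- library was below every WT library, with means of 16.8 ± 2.62 and 8.87 ± 1.37 TPM (SD, n = 5 each). The log2 fold change was -0.85 (standard error 0.13, adjusted p = 0.00103, limma), and -0.72 relative to the median of the tested genes. Parp3, which acts on DNA breaks as well, had 8.10, 8.05, 4.95, 6.65 and 5.94 TPM in WT and 10.73, 5.0, 11.59, 7.05 and 9.47 TPM in RhoB-/- replicates 1 to 5. Its groups overlapped, the log2 fold change was 0.30 with a 95% interval of -0.14 to 0.75 (adjusted p = 0.299, limma), and the interval includes 0 and changes above the fold threshold.

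The order of the levels differed between the genotypes. In WT mice the mean TPM ranked Parp12, Parp1, Parp9, Parp10, Dtx3l, Parp3, Parp11 and Parp14, from 21.4 down to 5.33 TPM. Of the 7 steps in this order, only that from Parp10 to Dtx3l was without overlap of the libraries. In RhoB-/- mice the order was Parp12, Parp9, Parp14, Dtx3l, Parp10, Parp11, Parp1 and Parp3, from 81.7 down to 8.77 TPM. Here the steps from Parp9 to Parp14, from Dtx3l to Parp10 and from Parp10 to Parp11 were without overlap, and the neighbours Parp14 and Dtx3l as well as Parp11, Parp1 and Parp3 overlapped. Parp14 was the lowest of the 8 in WT and among the highest in RhoB-/- mice. Parp12 was above Parp9 in 5 of 5 RhoB-/- libraries, although their ranges overlapped.

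**Figure D2:**
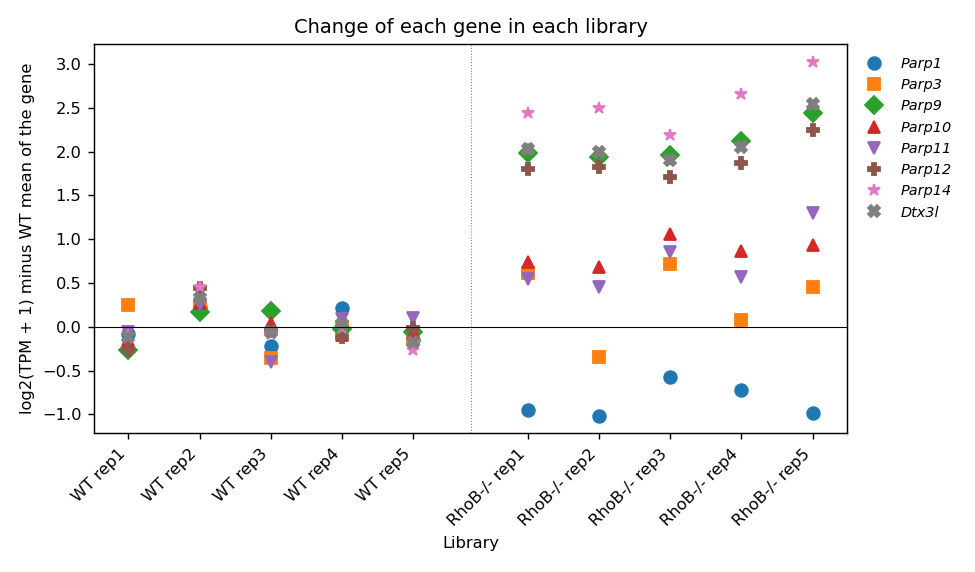
log2(TPM + 1) of each gene minus its WT mean (vertical axis) in each of the 10 libraries (horizontal axis), 1 symbol per gene. In RhoB-/- libraries Parp14 lies between 2.19 and 3.03, Parp9, Parp12 and Dtx3l lie together between 1.72 and 2.54, Parp10 and Parp11 lie between 0.45 and 1.31, Parp1 lies below 0 and Parp3 on both sides of it.

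The 6 genes that rose tended to be high in the same libraries. WT replicate 2 was the highest WT library for 5 of the 6, and the library labelled RhoB-/- replicate 5 was the highest RhoB-/- library for 5 of the 6. Their summed level was 82.82 TPM in WT replicate 2, against 55.77 to 63.76 TPM in the other WT libraries, and 316.88 TPM in RhoB-/- replicate 5, against 220.53 to 244.45 TPM in the other RhoB-/- libraries. The 45 other interferon-stimulated genes described below also summed highest there (546.20 against 468.37 to 543.58 TPM, and 4783.95 against 2868.55 to 4144.51 TPM). Mitochondrially encoded genes held 10.3% to 26.5% of the TPM of a library, with 17.5% in WT replicate 2 and 12.1% in RhoB-/- replicate 5. The part of this share in the PARP gene levels was not tested. The general leukocyte markers summed to 6.79 TPM in WT replicate 2, within the range of the other WT libraries, and to 36.04 TPM in RhoB-/- replicate 5, where RhoB-/- replicate 1 had 36.20 TPM. The library labelled RhoB-/- replicate 5 also had the highest sums of the epithelial, stromal and endothelial, B and plasma cell and myeloid markers. The 7 epithelial markers summed to 11833 TPM there, against 7319.01 to 10791.43 TPM in the other RhoB-/- libraries. The stromal and endothelial sum was 36.44 TPM against 6.24 to 16.17 TPM, the B and plasma cell sum 11.42 TPM against 0.93 to 5.33 TPM, and the myeloid sum 16.39 TPM against 4.26 to 13.55 TPM. The T and NK cell markers, in contrast, had their lowest RhoB-/- sum in this library, 35.25 TPM against 35.89 to 39.54 TPM. The part of these cells in the high PARP gene levels of this library was not tested.

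Parp14, Dtx3l and Parp9 lie next to each other on chromosome 16 within 140 kb (GRCm38). Parp14 lies at 35832874 to 35871544 and Dtx3l at 35926511 to 35939151, both on the minus strand, and Parp9 at 35938470 to 35972605 on the plus strand. Dtx3l and Parp9 lie head to head and overlap at their starts by 682 bases, of which 458 are exonic in both genes, or 8.0% of the exonic bases of Dtx3l and 9.40% of those of Parp9. Reads were aligned in an orientation mode according to the methods, but whether the library kit kept the strand and whether genes were counted by strand is not stated, so reads from this stretch cannot be assigned to 1 gene of the pair with certainty. Of the 9 other tested genes within 500 kb of the cluster, named for their position after their values were seen, 0 were called. Their log2 fold changes were -0.37 (Pdia5) to 0.46 (Dirc2), and the adjoining genes Hspbap1 and Kpna1 had -0.16 and -0.09 (adjusted p = 0.446 and 0.555, limma). Before adjustment, 1 of these 9 genes had a p below 0.05, Dirc2, whose adjusted p was 0.0416 (limma) with a change under the fold threshold. Over all tested genes 5.58% were called higher and 7.13% lower, so 0 of 9 does not set these neighbours apart.

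**Figure D3:**
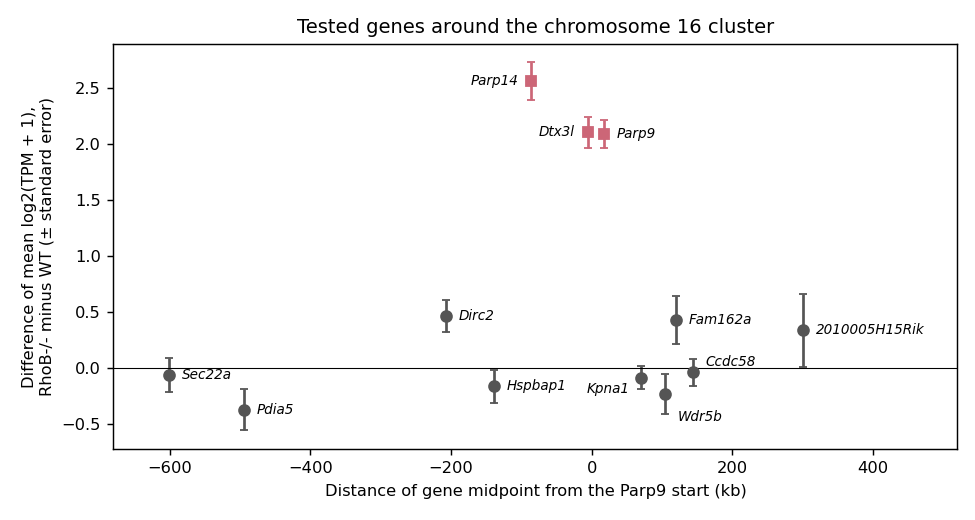
log2 fold change between the genotypes (vertical axis, bars are the standard error) of the 12 tested genes in and around the chromosome 16 cluster, against the distance of each gene's midpoint from the Parp9 start in kb. Parp14, Dtx3l and Parp9 (squares) lie between 2.09 and 2.56, and the 9 other genes (circles) lie between -0.37 and 0.46.

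Within a library, Parp9 and Dtx3l kept a similar ratio in both genotypes, whereas Parp14 rose by more than either. The TPM of Parp9 over that of Dtx3l was 1.67 to 2.27 in WT and 1.67 to 1.89 in RhoB-/- libraries. On the log2(TPM + 1) scale this ratio changed by -0.02 (exact permutation test over the libraries, two-sided, p = 0.849, adjusted p = 0.849 over the 3 pairs compared). The TPM of Dtx3l over that of Parp14 was 1.21 to 1.47 in WT and 0.853 to 1.07 in RhoB-/- libraries. This ratio fell by 0.46 on the log2 scale in an exact permutation test (p = 0.00794, the smallest that 5 against 5 allow, adjusted p = 0.0238), and was lower in 5 of 5 RhoB-/- libraries than in any WT library. Parp9 over Parp14 fell by 0.47 (exact permutation test, p = 0.0159, adjusted p = 0.0238), from 2.02 to 3.14 in WT to 1.55 to 2.01 in RhoB-/- libraries as a ratio of TPM. On the log2(TPM + 1) scale of the test the groups overlapped, with 0.93 to 1.47 in WT and 0.63 to 0.98 in RhoB-/- libraries.

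**Figure D4:**
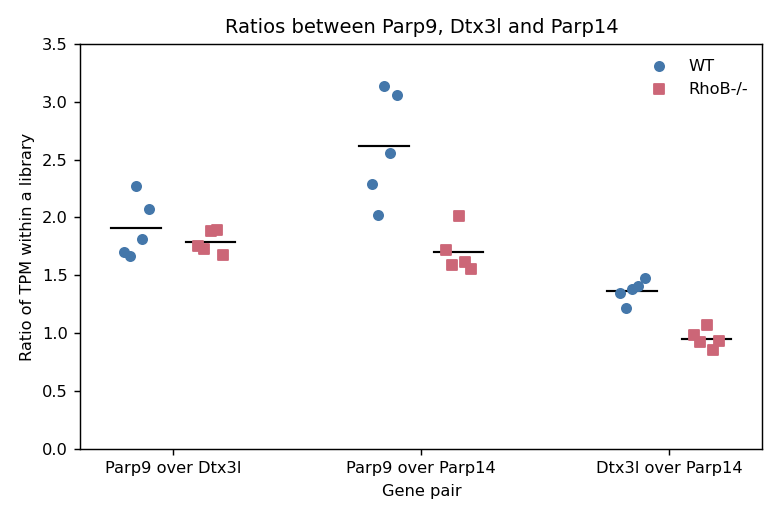
Ratio of the TPM of 2 genes within each library (vertical axis, from 0) for 3 gene pairs, with WT libraries as circles, RhoB-/- libraries as squares and group means as lines. Parp9 over Dtx3l overlaps between the genotypes, and Dtx3l over Parp14 is 1.21 to 1.47 in WT and 0.853 to 1.07 in RhoB-/- libraries.

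Chromosome 6 holds a further pair of the members at distant positions, Parp12 (39086410 to 39118349) and Parp11 (127446840 to 127494261). Parp10 lies on chromosome 15 (76231174 to 76243441) and shares 205 exonic bases with Plec on the same strand, 4.8% of its exonic length, where reads may have been split between the genes. The mean of Plec was 52.8 TPM in WT against 69.4 TPM in the knockout. Parp3 lies on chromosome 9 (106470322 to 106476949) and Parp1 on chromosome 1 (180568924 to 180601254).

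Of 9 other PARP genes, 8 were tested, and 2 were higher and 0 lower. The shares over all tested genes were 5.58% higher and 7.13% lower. Zc3hav1 is an antiviral RNA-binding protein with an inactive PARP domain. Its mean level was 17.8 ± 1.01 TPM in WT against 44.2 ± 9.92 TPM in the knockout (SD, n = 5 each), and it rose by 1.24 on the log2 scale (adjusted p = 8.41e-05, limma). Parp4, a component of vault particles, rose by 0.64 (adjusted p = 0.00444, limma). Both genes had groups that did not overlap. Only Zc3hav1 was called without the library labelled RhoB-/- replicate 5, and likewise with mitochondrially encoded genes left out, where Parp4 fell short of the fold threshold. Parp2, Parp6, Tnks, Tnks2 and Tiparp had log2 fold changes of -0.18 to 0.18, and Parp16 of -0.47 (adjusted p = 0.0205, limma), under the fold threshold. Parp8 was below the filter.

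Of 12 genes listed for the removal or breakdown of ADP-ribose, or related to these, 11 were tested, with 0 higher and 1 lower. Among all tested genes 5.58% were higher and 7.13% lower. The median log2 fold change of the 11 was -0.10, where all tested genes had a median of -0.13. The gene called lower was Macrod1, a hydrolase of mono-ADP-ribose on proteins (18.2 ± 3.46 and 11.6 ± 1.77 TPM, SD, n = 5 each, log2 fold change -0.60, adjusted p = 0.0162, limma). Macrod1 fell short of the fold threshold with quantile normalization, with each library centred on its median and without the library labelled RhoB-/- replicate 5. Enpp1, which also cleaves ADP-ribose, was called in its place in the last of these, and both were called lower with mitochondrially encoded genes left out. Parg, the main hydrolase of poly(ADP-ribose) chains, had a log2 fold change of -0.11 with a 95% interval of -0.33 to 0.10. Of the other 4 deltex genes, Dtx2, Dtx3 and Dtx4 were tested and 0 were called (log2 fold changes 0.12, -0.21 and -0.48; limma), of which Dtx4 had an adjusted p of 0.0479 and a change under the fold threshold. Dtx1, a Notch pathway regulator below the filter, had 0.13 to 0.29 TPM in WT and 0.90 to 1.53 TPM in RhoB-/- libraries, which did not overlap and were not tested.

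**Figure D5:**
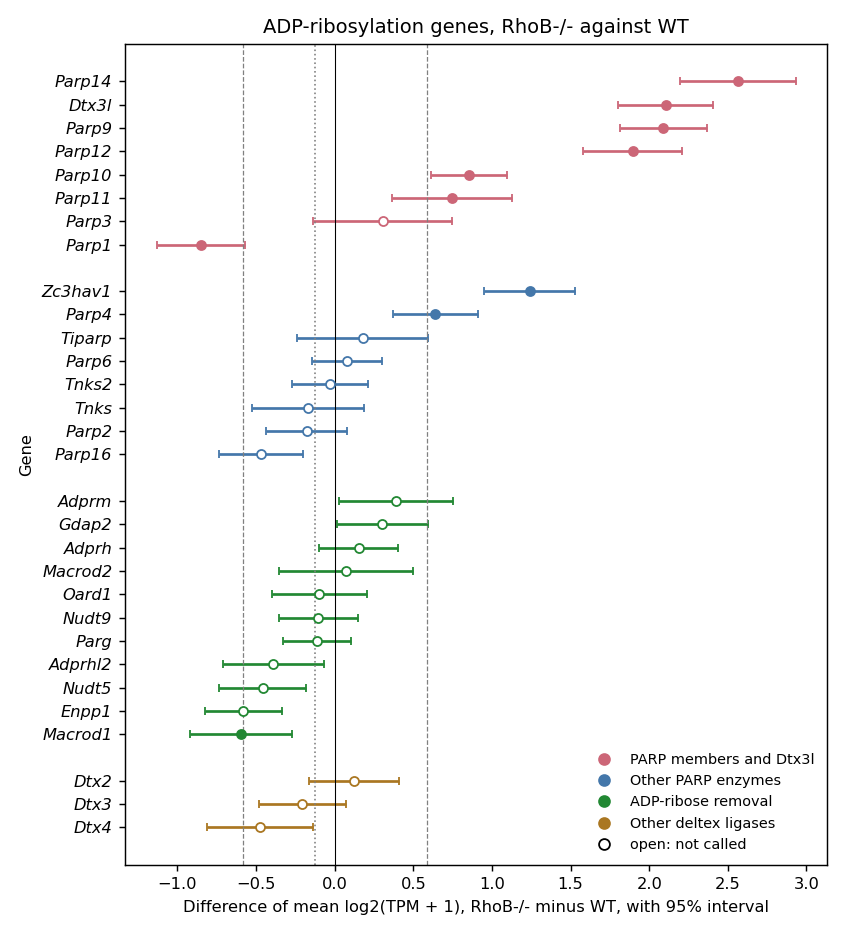
log2 fold change of the 30 tested genes of ADP-ribosylation with their 95% intervals (limma). Filled symbols are called genes and open symbols are not called, dashed lines are the fold threshold of 1.5 in either direction and the dotted line is the median of all tested genes (-0.13). Parp14, Dtx3l, Parp9 and Parp12 lie above 1.5 on this scale, and the other genes lie below it.

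Partners of Parp1 in DNA repair were tested alongside it. Of 10 genes, 0 were higher and 3 were lower, where 7.13% of all tested genes were lower. The median log2 fold change was -0.36, against -0.13 over all tested genes. Those called lower were Xrcc5 and Xrcc6, the subunits of the Ku complex that binds DNA ends, and Timeless, a replication fork protein. Xrcc5 had 9.40 to 11.71 TPM in WT and 3.68 to 5.14 TPM in RhoB-/- libraries, and fell by 1.09 on the log2 scale (adjusted p = 3.64e-05, limma). Timeless and Xrcc6 had log2 fold changes of -0.69 and -0.62, and their groups overlapped. With quantile normalization or with each library centred on its median, only Xrcc5 of the 10 was called, and without the library labelled RhoB-/- replicate 5 Xrcc5 and Timeless were called. Xrcc1, Lig3, Polb and Hpf1, which work with Parp1 at single-strand breaks, were not called (log2 fold changes -0.42, -0.30, -0.01 and -0.23; limma).

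Of 9 genes of NAD synthesis, 6 were tested, 1 was higher and 1 was lower, where 5.58% and 7.13% of all tested genes were. Nampt, which catalyses the limiting step of NAD salvage from nicotinamide, averaged 18.4 ± 1.91 TPM in WT against 35.7 ± 6.46 TPM in the knockout (SD, n = 5 each) and rose by 0.90 on the log2 scale (adjusted p = 7.45e-04, limma). Nmnat3, a later enzyme of the pathway, fell by 0.99 on the log2 scale (adjusted p = 0.00281, limma), from 6.53 ± 1.59 to 2.79 ± 0.758 TPM. Their groups did not overlap, and both calls were also made under the 3 other scalings and without the library labelled RhoB-/- replicate 5.

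The interferon pathway was described from its ligands to its targets. All 13 interferon genes examined were below the filter, and 10 of them, including Ifnb1, were listed at 0 in every library. Ifng had 0.17 to 1.17 TPM in WT and 0.19 to 1.13 TPM in RhoB-/- libraries. Ifnk was listed at 0 in every WT library and had at most 0.44 TPM in RhoB-/- libraries, and Ifnl2 had at most 0.25 and 0.14 TPM. These genes were not tested. For the counts that follow, 5.58% of all tested genes were called higher. Of 6 receptor genes, 1 was higher (3 with each library centred on its median, when Ifngr1 and Ifngr2 were called too). This was Ifnlr1, the receptor subunit specific for type III interferon (2.84 to 4.51 TPM in WT and 4.69 to 8.89 TPM in RhoB-/- libraries, log2 fold change 0.70, adjusted p = 0.0118, limma). Of 15 signal factors, 7 were higher and 0 lower (6 to 8 higher under the other scalings and without the library labelled RhoB-/- replicate 5), with the largest changes for Usp18, Irf7 and Stat2 (4.25, 3.05 and 2.03). Usp18 removes Isg15 from proteins, and Irf7 and Stat2 are transcription factors of the interferon response. Stat3, Irf2, Irf3, Irf8, Jak1 and Tyk2 were within 0.17 of 0 on the log2 scale. Also not called were Jak2 and Socs3, with log2 fold changes of 0.52 and 0.86 (adjusted p = 0.0195 and 0.152, limma). The groups of Jak2 did not overlap, but its change was under the fold threshold. All 45 of 45 other interferon-stimulated genes were higher, with log2 fold changes of 1.09 to 6.47 and a median of 2.71. Ifi44, Iigp1, Mx2, Ifit2, Ifit3b, Gbp3 and Nlrc5 among them averaged 0.316 to 0.93 TPM in WT. These passed the filter only through their RhoB-/- level, so the filter fixed their direction. The list was compiled with the change of several of its genes known, so its count is a description. Parp14 lay near that median, and Parp10 and Parp11 lay below the lowest of the 45 genes.

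The genes with profiles most like those of the members were sought among all tested genes, by the root mean square difference of log2(TPM + 1) minus the WT mean over the 10 libraries. Parp9 was the closest of all tested genes to Dtx3l (0.12), and Dtx3l was second to Trim12a (0.08) as seen from Parp9. Outside the members, those closest to Dtx3l were Trim12a, Stat2 and Oas1a (0.14, 0.14 and 0.18). Those closest to Parp9 after Trim12a were Btnl7-ps and Lgals3bp (0.15 and 0.16). The nearest to Parp12 were Uba7, Ddx58 and Trim34a (0.12, 0.15 and 0.15), and the nearest to Parp14 were Rnf213, Oas1b and Slfn5 (0.15, 0.22 and 0.22). Oas1b and Slfn5 had means of 0.85 and 0.062 TPM in WT and 8.71 and 6.28 TPM in RhoB-/- mice. They passed the filter only through their RhoB-/- level. Adding 1 to the TPM shrinks changes of genes near 0, so their likeness to Parp14 holds on this scale only. For Parp10 they were Gsdmd, Ms4a8a and Camk2n1 (0.10, 0.13 and 0.13), and for Parp11 Plekhn1, Rhbg and Spg20 (0.13, 0.15 and 0.15). Parp1 was closest to Kyat3, Smo and Cc2d2a (0.06, 0.06 and 0.09), genes with a mean of at most 5.79 TPM in either genotype. The measure rests on 10 libraries and mostly on the difference between the genotypes, which the genes of each set share.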

How the data were processed

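Bulk RNA-seq of colonic IECs was analysed in 10 libraries, 5 per genotype, with group and replicate number taken from the sample titles. Libraries (TruSeq, paired reads of 150 bases) were made and sequenced by the authors' provider, using SeqPrep and Sickle for trimming, HISAT2 for alignment, StringTie for assembly and RSEM for gene levels. The submitters' processing notes also name edgeR and the build GRCm38.p6. The authors deposited TPM per gene with 2 decimals, and these were used unchanged. Read depth is not kept in TPM.

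The genotypes were compared with limma 3.58.1 in R 4.3.3 (lmFit, eBayes with trend) on log2(TPM + 1) over genes whose TPM averaged 1 or more, with Benjamini-Hochberg adjustment over all of them. The calling script was tested on simulated data. Ratios within libraries were compared by exact permutation. The paper gives n = 5 per genotype for the IECs and does not state the litters of the mice. The p-values therefore measure the spread between these 5 libraries per group. Genes named beyond the members came from lists for their pathway (all PARP, removal and deltex genes, otherwise the 3 largest called changes), the 3 closest profiles per called member, the neighbours on chromosome 16 and genes named after their values were seen. The members and lists were chosen with earlier results of these data known. Positions are from GENCODE M21 (GRCm38), promoters from RefSeq (GRCm38.p6).

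The alternatives were a pseudocount of 0.1, no filter or a mean TPM of at least 5, quantile normalization, centring on the library median, leaving out mitochondrial genes, a replicate block, limma without trend, other call rules and leaving out each library. For the pathway and marker lists, the other scalings and the fit without RhoB-/- replicate 5 were added after seeing the data.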

Additional observations from a re-analysis of the deposited data

Results flagged for a closer look

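Among 18 groups of 5 values (the 8 genes and Rhob in both genotypes), 3 held a library that stood far apart. By chance about 1 group in 20 would if the groups were independent. They were not, because they share libraries and Parp12 and Dtx3l had similar profiles (root mean square difference 0.18). The count is therefore a description. All 3 were the library labelled RhoB-/- replicate 5. It had 103.98 TPM of Parp12, 46.26 TPM of Dtx3l and 110.87 TPM of Rhob. Without this library the log2 fold change was 1.80 for Parp12 (adjusted p = 1.98e-05, limma) and 2.0 for Dtx3l (adjusted p = 3.26e-06, limma).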

How the results depend on the processing

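The 6 members called higher and the 1 called lower were counted alike under the 10 alternative settings and call rules and in the 10 fits without 1 library each. Each member kept its direction and its side of an adjusted p of 0.05 in the 8 other fits and the 10 fits without a library. Over all of these, the log2 fold change was 2.45 to 2.76 for Parp14 and -0.93 to -0.73 for Parp1. The highest adjusted p of Parp11 was 0.0371, without a filter on low TPM (limma). No sign was seen that the replicate numbers of the labels pair the mice, which does not exclude a pairing. Correlations of same-numbered libraries were -0.0874 to 0.0720, and 2 of 10 libraries correlated best with their own number. With a replicate block, 6 members were higher and 1 was lower, and no other call on a member changed. Across all tested genes, 718 were higher and 918 lower, against 950 and 539 with each library centred on its median, 845 and 581 with quantile normalization, 565 and 548 at an average TPM of 5 or more and 697 and 1471 without mitochondrial genes. The change in the ratio of Parp9 to Dtx3l was -0.055 to 0.0438 in the 10 comparisons without 1 library each, and turned positive without WT replicate 3 (0.0438), WT replicate 5 (0.0117) or RhoB-/- replicate 5 (0.00483), and the cause was not tested. The falls in the ratios to Parp14 kept an adjusted p below 0.05 in exact permutation tests throughout. The unknown depth limits statements on genes under 1 TPM, such as the interferons.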
